A study of Mus musculus with 6 samples.

Results

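The complement components and regulators are 9 genes, C3, C4b, Cfb, C1ra, Masp1, Cfi, Cd55, Cd46 and Serping1, of the 24982 genes listed for each RNA-seq library of 2 murine keratinocyte lines. These members were chosen by their values in the comparison of the lines, because C3 was lower and Masp1 was newly listed in the DKSFM cells. Their differences between the lines are therefore given as a description, with no test. The KSFM-Ca2+ cells came from neonatal skin of C57BL/6 mice and were kept in KSFM-Ca2+, a serum-free keratinocyte medium made without added calcium. The DKSFM cells descend from the KSFM-Ca2+ cells and had been adapted to DKSFM, a defined serum-free keratinocyte medium with more calcium. Neither group received any other treatment. Each line had 3 libraries, numbered 1 to 3 in the sample labels. What a replicate was is not stated, so p-values measure only the spread between these samples, which may be technical. Whether the libraries of a medium come from separately derived lines is not stated either, and the DKSFM cells are the descendants that grew after the change of medium, so that medium, adaptation and selection of cells cannot be told apart.

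Complement is a system of plasma and membrane proteins that marks surfaces for uptake or lysis. The classical pathway (C1q, C1r, C1s, C4, C2) and the lectin pathway (collectins or ficolins with the MASP proteases) cleave C4 and C2, and the alternative pathway (factor B, factor D, properdin) amplifies the cleavage of C3, the central component at which all routes meet. Soluble and membrane-bound regulators stop the cascade on the body's own cells. The liver makes most of the plasma proteins, and epithelial cells, keratinocytes included, also make some components, C3 and factor B among them.

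The value for each gene was the mean read coverage per base, listed to 1 decimal. Because coverage is per base, levels can be compared between genes within a library. Listed coverage is not scaled to library size, so comparisons between libraries rest on the normalized coverage defined below. Coverage summed over genes was 1601676, 1238411 and 1057750 in KSFM-Ca2+ libraries 1 to 3, and 1174348, 1239438 and 1170675 in DKSFM libraries 1 to 3. Normalized coverage is the listed coverage scaled to a common library size, and its mean ± SD is over the 3 libraries of a line. Log2 fold changes are DKSFM over KSFM-Ca2+ on the log2(normalized coverage + 0.1) scale, on which low genes show less change than their values would give. Of 16081 genes above 0 in at least 1 library, 12409 reached a normalized coverage of 0.5 in at least 3 libraries and were tested. Of the 9 members, 5 passed this filter (C3, C1ra, Masp1, Cd55 and Cd46), and Masp1 passed through its DKSFM libraries alone. Cfi, Cfb and C4b were listed above 0 without passing, and Serping1 was listed at 0 in all 6 libraries.

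**Figure D1:**
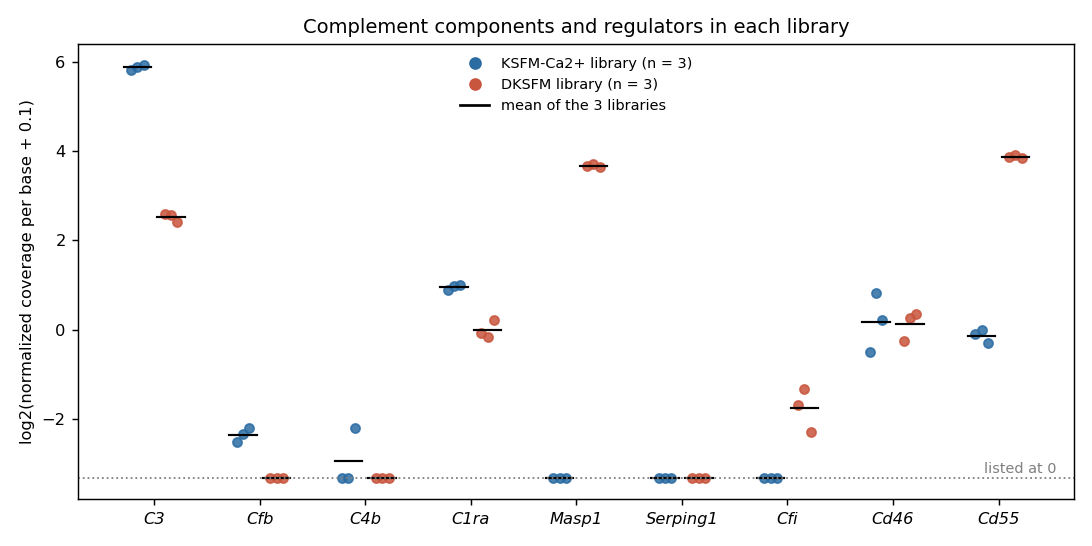
Normalized coverage per base of the 9 members in each of the 6 libraries, on a log2 axis after adding 0.1, with a bar at the mean of each line on that scale; the dotted line marks genes listed at 0. C3 stands at 56.2 to 60.9 in the KSFM-Ca2+ libraries and at 5.19 to 5.95 in the DKSFM libraries, Masp1 and Cd55 stand higher in the DKSFM libraries, and the libraries of the lines overlap for Cd46.

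C3 was the most abundant member in the KSFM-Ca2+ cells. Its listed coverage was 73.7, 59.4 and 51.6 in KSFM-Ca2+ libraries 1 to 3 and 5.6, 5.8 and 4.9 in DKSFM libraries 1 to 3. All 3 KSFM-Ca2+ libraries were high and all 3 DKSFM libraries low, with no overlap. After normalization the mean was 58.6 ± 2.36 in the KSFM-Ca2+ cells and 5.645 ± 0.397 in the DKSFM cells (SD, n = 3), a 10.4-fold lower level in the latter (log2 fold change -3.35, SE 0.06). C3 lay above 69.9% of the tested genes in the KSFM-Ca2+ cells and above 22.5% in the DKSFM cells. In these bulk samples, fewer cells that express C3 and less C3 RNA per cell cannot be told apart.

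The other genes of the alternative pathway were listed at 1.4 or less in every library. Cfb, which encodes the factor B protease of the C3 convertase, was listed at 0.1 in each KSFM-Ca2+ library and at 0 in each DKSFM library. Cfd, which encodes the protease that activates factor B, was listed at 0 in all 6 libraries. Cfp encodes properdin, which stabilizes the alternative C3 convertase, and was listed at 0.6, 0.4 and 0.6 in the KSFM-Ca2+ libraries against 1.3, 0.9 and 1.4 in the DKSFM libraries. It was called higher in the DKSFM cells (log2 fold change 1.13, SE 0.27, adjusted p = 0.00451), where a gene was called if limma's adjusted p, taken over all tested genes, was under 0.01 and the change was at least 2-fold. Cfp passed the filter through its DKSFM libraries, where it was high, and was not tested with a filter that asks for 0.5 in every library. Its call also depended on single libraries. The adjusted p was 0.018 without KSFM-Ca2+ replicate 1, 0.0177 without KSFM-Ca2+ replicate 2, 0.0197 without DKSFM replicate 1 and 0.0202 without DKSFM replicate 3, over a range of 0.00283 to 1 among all alternatives, and Cfp was called in 7 of the 16 alternatives in which it was tested. Quantile normalization (log2 fold change 0.74) and pseudocounts of 0.5 (0.78) and 1 (0.56) also ended the call. Summed over the 4 genes of this role, coverage was 59.21 ± 2.5 in the KSFM-Ca2+ cells and 6.9 ± 0.369 in the DKSFM cells, most of it C3 in both.

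Masp1 encodes proteases that associate with lectin pathway recognition molecules, MASP-1 and by alternative splicing MASP-3, which coverage per gene does not separate. It was listed at 0 in all 3 KSFM-Ca2+ libraries and at 11.9, 13 and 11.6 in DKSFM libraries 1 to 3. The DKSFM libraries lay close together, at a normalized 12.64 ± 0.347 (n = 3), above 34.6% of the tested genes. No fold is given against a line listed at 0. At the read length of the study and over the longest annotated coding transcript of Masp1, a coverage that rounds to 0 holds fewer than about 3.14 reads.

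The recognition molecules that Masp1 products bind were scarce in both lines, apart from Fcna in the KSFM-Ca2+ cells. Mbl1, Mbl2, Fcnb and Colec10 were listed at 0 in all 6 libraries, and Colec11 between 0.1 and 0.7 with overlapping lines. Masp2, the protease that cleaves C4 and C2, was listed at 0.1 in 2 DKSFM libraries and at 0 elsewhere. Fcna, which encodes the plasma ficolin A, was listed at 3.1, 3.3 and 2.8 in the KSFM-Ca2+ libraries against 0.1, 0.6 and 0.3 in the DKSFM libraries, a difference of -2.96 on the log2 scale (SE 0.41). Over the alternatives this difference ranged from -3.37 to -1.58. The DKSFM values spread over a 72.5% coefficient of variation, close to the rounding step. Colec12, a membrane scavenger receptor of the collectin family, was listed at 1.3, 1 and 0.7 against 0, 0.1 and 0, with no overlap of the lines. Both genes passed the filter through their KSFM-Ca2+ libraries, where they were high, so their calls as lower add nothing to these values, and a filter that asks for 0.5 in every library left both untested. At a pseudocount of 1 Colec12 was not called (log2 fold change -0.91). Lectin pathway coverage summed to 4.322 ± 0.649 in the KSFM-Ca2+ cells and 13.46 ± 0.75 in the DKSFM cells, where Masp1 made up most of it.

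In the classical pathway, coverage came from the C1r and C1s proteases. C1ra, which encodes C1r, was listed at 2.3, 1.9 and 1.6 in the KSFM-Ca2+ libraries against 0.8, 0.8 and 1 in the DKSFM libraries. Each KSFM-Ca2+ library was above each DKSFM library. The normalized means were 1.84 ± 0.0754 and 0.9029 ± 0.138, 2.04-fold lower in the DKSFM cells (log2 fold change -0.96, SE 0.16). C1s1, the gene of the partner protease C1s, was listed at 7.1, 6.4 and 5.7 against 4.5, 6.4 and 5.5. Its lines overlapped after normalization, and it was not called (log2 fold change -0.12, SE 0.13, adjusted p = 0.405). C1qa, C1qb and C1qc, which encode the recognition molecule C1q, and C1rb were listed at 0 in all 6 libraries. C4b, the mouse C4 gene, was listed at 0.1 in KSFM-Ca2+ library 3 and at 0 in the others. C4a, its close paralog, was listed at 0.2, 0.1 and 0.1 in the KSFM-Ca2+ libraries against 0.3, 0.2 and 0.2 in the DKSFM libraries. C2 and C1s2 did not exceed 0.1 in any library.

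Some of these genes share sequence with another gene, mostly a paralog, and how reads were divided between the copies was not tested. Stretches as long as a read were taken from the annotated coding transcripts and sought in the transcripts of all other genes. The share found in any other gene was 39.7% for C1ra (main partner C1rb) and 20.2% for C4b (C4a). It was 10.8% for C1s1 (C1s2) and 5.9% for Cd55 (Cd55b). The partners C1rb and Cd55b were listed at 0 in all 6 libraries. For the membrane regulators described below, the share was 7.41% for Cr1l (main partner the pseudogene Crry-ps) and 1.1% for Cd59a (Cd59b). For Cfb the share was 70.5%, with an overlapping readthrough gene as main partner, so its values near 0.1 are uncertain. No such stretch was shared for C3, Masp1, Cfi, Cd46 or Serping1.

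Of the 7 terminal pathway genes, which encode the proteins that assemble into the membrane attack complex, 6 were listed at 0 in all 6 libraries (Hc, C6, C7, C8a, C8b and C9). C8g was listed at 0.2, 0 and 0.1 in the KSFM-Ca2+ libraries against 0.2, 0.5 and 0.5 in the DKSFM libraries, and did not pass the filter.

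**Figure D2:**
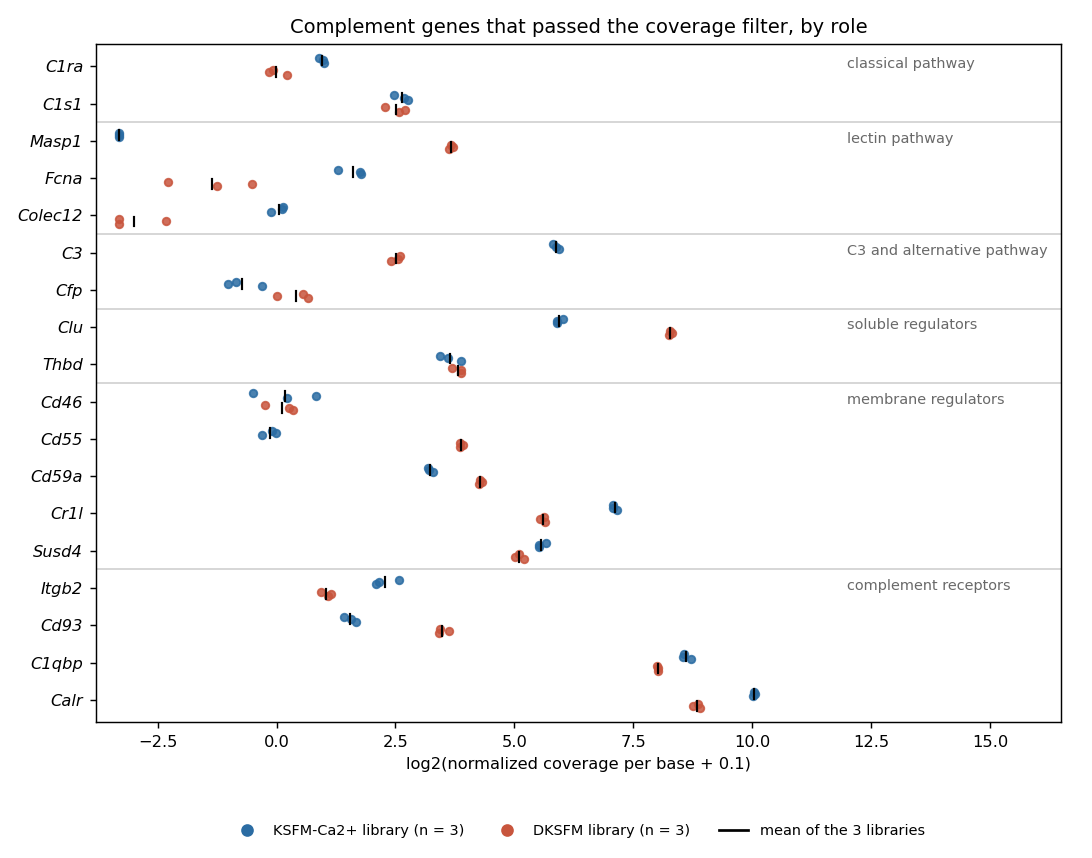
Normalized coverage per base of the 18 complement genes that passed the coverage filter, grouped by role, with each library as a point and the mean of each line as a bar, on a log2 axis after adding 0.1. Calr has the highest level in every library, Clu stands higher in the DKSFM libraries, and C3 and Cr1l stand higher in the KSFM-Ca2+ libraries.

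The soluble regulators among the members were hardly present. Serping1 encodes C1 inhibitor, which blocks the C1r, C1s and MASP proteases, and was listed at 0 in all 6 libraries. Cfi encodes factor I, the protease that cleaves C3b and C4b, and was listed at 0 in each KSFM-Ca2+ library and at 0.2, 0.3 and 0.1 in the DKSFM libraries. C4bp, which encodes a soluble cofactor of factor I, was listed at 0.1 in DKSFM library 3 and at 0 in the others. Over the longest annotated coding transcripts, a listed 0 holds fewer than about 1.22 reads for Cfi and 1.04 reads for Serping1. Clu, outside the members, encodes clusterin, a secreted chaperone that also binds the assembling membrane attack complex. It was listed at 85.4, 60.2 and 50.5 in the KSFM-Ca2+ libraries against 292.5, 315.8 and 288.5 in the DKSFM libraries. The lines did not overlap, and Clu rose from a normalized 61.4 ± 3.19 to 310.6 ± 4.86 (log2 fold change 2.34, SE 0.04, adjusted p = 1.96e-09). Thbd, which encodes the membrane protein thrombomodulin and was kept in the same list, had 12.51 ± 2.02 and 14.02 ± 1.02 and was not called (adjusted p = 0.193).

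Membrane regulators protect a cell from the complement activated on its own surface. Cd55 encodes decay-accelerating factor, which takes C3 convertases apart. It was listed at 1.1, 0.9 and 0.6 in the KSFM-Ca2+ libraries against 13.6, 15 and 13.5 in the DKSFM libraries. All DKSFM libraries were high and all KSFM-Ca2+ libraries low, at normalized means of 14.58 ± 0.36 and 0.8121 ± 0.0938, an 18-fold higher level in the DKSFM cells (log2 fold change 4.01, SE 0.11). Its paralog Cd55b was listed at 0 in all 6 libraries. Cd46 encodes a cofactor for factor I that in mice is best known from the testis. It was listed at 0.8, 1.7 and 0.9 in the KSFM-Ca2+ libraries against 0.7, 1.1 and 1.1 in the DKSFM libraries. The lines overlapped, and the difference was smaller than its error (log2 fold change -0.07, SE 0.34). Its sign rested on single libraries, with 0.26 without KSFM-Ca2+ replicate 2 and 0.13 without DKSFM replicate 1.

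Cr1l encodes Crry, the widely expressed rodent regulator that combines decay-accelerating and cofactor activity. It was listed at 177.7, 136.8 and 121.4 in the KSFM-Ca2+ libraries against 46.5, 46.2 and 46.9 in the DKSFM libraries. In the KSFM-Ca2+ cells it exceeded C3. It fell from a normalized 138 ± 4.55 to 48.42 ± 1.96 (log2 fold change -1.51, SE 0.04, adjusted p = 1.78e-08), with no overlap. Cd59a, whose product blocks the membrane attack complex, rose from 9.255 ± 0.367 to 19.36 ± 0.471 (log2 fold change 1.06, SE 0.06, adjusted p = 5.71e-07). Its change was close to the 2-fold threshold and fell short of it after quantile normalization (log2 fold change 0.97) and at a pseudocount of 1 (0.99), and it was not called in limma's test against a 2-fold change itself. Susd4, a further membrane inhibitor, had 47.17 ± 2.97 and 34.28 ± 2.25, past the adjusted p but under 2-fold (log2 fold change -0.46, adjusted p = 0.00019). Cd59b, Csmd1, Csmd2 and Csmd3 were listed at 0 in all 6 libraries.

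Cr1l, Cd55 and Cd46, summed here as regulators of C3 convertases, differed in composition as well as in amount. Susd4, with means of 47.17 and 34.28, was not part of the sum, so the shares hold for these 3 genes only. Coverage of Cr1l, Cd55 and Cd46 summed to 139.9 ± 4.44 in the KSFM-Ca2+ cells and to 64 ± 1.55 in the DKSFM cells. Cr1l made up 98.6 ± 0.43% of this sum in the KSFM-Ca2+ cells and 75.6 ± 1.3% in the DKSFM cells. Cd55 made up 0.582 ± 0.083% and 22.8 ± 1.1%. Cr1l remained the most abundant of the 3 in both lines, and the Cd55 share was set by a member chosen on this contrast.

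**Figure D3:**
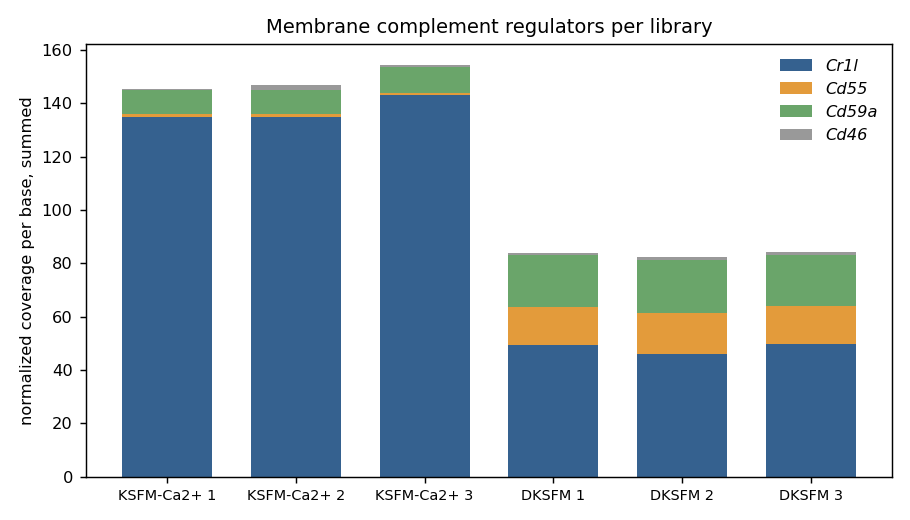
Stacked bars of the normalized coverage per base of Cr1l, Cd55, Cd59a and Cd46 in each of the 6 libraries, on a linear axis from 0. The Cr1l segment is tallest in every library and shorter in the DKSFM libraries, where the Cd55 segment, at 14.3 to 15, becomes visible.

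Among complement receptors, most genes best known from leukocytes were near 0. C3ar1 and C5ar1, the anaphylatoxin receptors, did not exceed 0.1 in any library, and C5ar2, Cr2, Itgax and Vsig4 were listed at 0 in all. Itgam, the alpha chain of complement receptor CR3, did not exceed 0.1, whereas its beta chain Itgb2 fell from 4.783 ± 0.947 to 1.972 ± 0.151 (log2 fold change -1.22, adjusted p = 9.52e-05). The call for Itgb2 was lost at a pseudocount of 1 (log2 fold change -0.95) and in limma's test against a 2-fold change itself. Cd93, a transmembrane protein first described as a C1q receptor, rose from 2.842 ± 0.239 to 11.14 ± 0.921 (log2 fold change 1.93, adjusted p = 4.41e-07). Calr fell from 1048 ± 16.7 to 457.9 ± 24.6 (log2 fold change -1.2, adjusted p = 5.12e-08). C1qbp had 389.3 ± 24.7 and 258.2 ± 1, past the adjusted p but under 2-fold (log2 fold change -0.59, adjusted p = 4.29e-06). Both bind C1q, and their main places in the cell are the endoplasmic reticulum for calreticulin and the mitochondrion for C1qbp.

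Taking the 7 roles as a list, 62 genes were in the files and 31 of them were listed at 0 in all 6 libraries. Outside the members, 13 of 53 genes were tested, and 4 were higher in the DKSFM cells (Clu, Cd93, Cd59a and Cfp), where 13.2% of all tested genes were called higher. The 5 lower ones were Cr1l, Calr, Itgb2, Fcna and Colec12, where 10.5% of all tested genes were called lower. Of these 9, Cfp, Fcna and Colec12 had passed the filter through the line in which they were high. With a filter that asks for 0.5 in every library, which leaves these 3 untested, 3 genes were higher and 3 lower. Over all genes, that filter gave 1032 higher and 955 lower of 11112 tested. The remaining 4 of the 13 (C1s1, Thbd, Susd4 and C1qbp) were not called. The median log2 fold change of the 13, with Cfp, Fcna and Colec12 included, was -0.46 and that of the other 10 was -0.29, against -0.00118 over all tested genes. The libraries of the lines did not overlap in 11 of the 13 (84.6%), close to the 83.3% over all tested genes, so that this count says nothing about complement genes in particular. The list held genes that rose beside genes that fell in the membrane regulators and in the receptors.

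**Figure D4:**
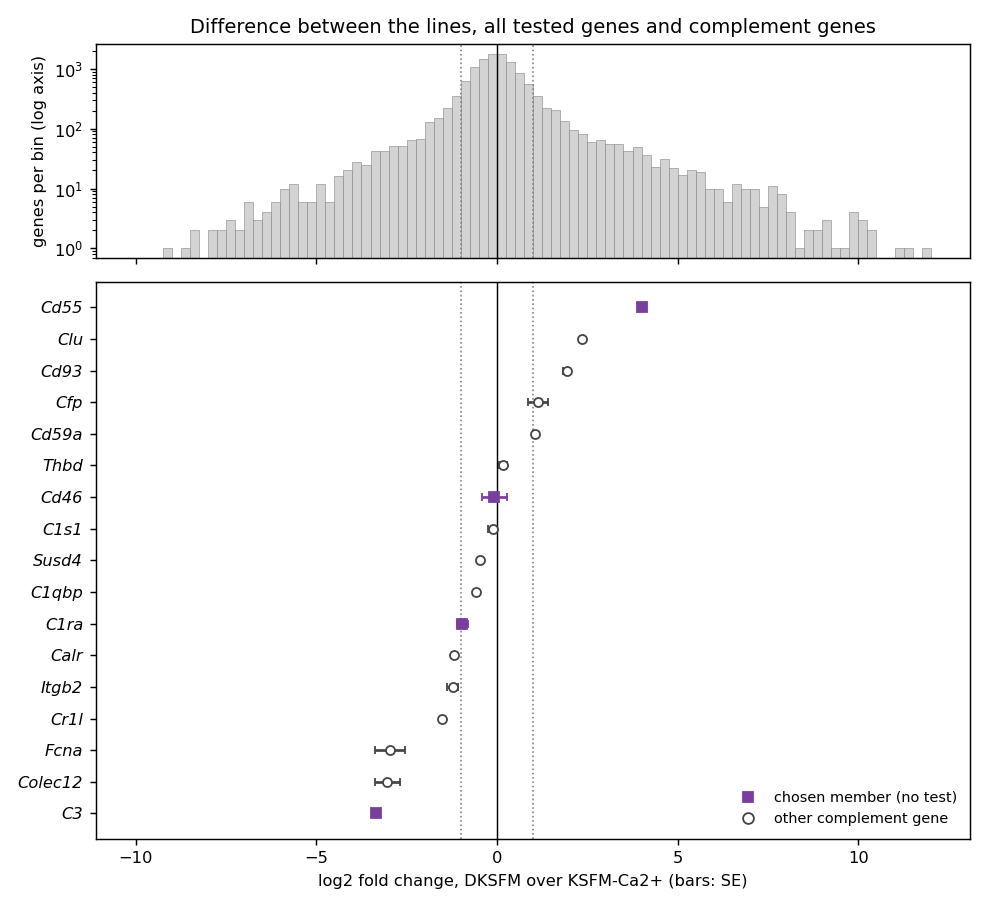
Upper plot: the number of tested genes per bin of log2 fold change, on a log axis. Lower plot: the log2 fold change of 17 complement genes with its SE, filled squares for members and open circles for the others, with dotted lines at a 2-fold change. Masp1 is left out because it was listed at 0 in the KSFM-Ca2+ cells. C3 has the lowest value, -3.35, and Cd55 the highest, 4.01.

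In GENCODE M21 on GRCm38, C3 lies at chr17:57203970-57228136, C4b at chr17:34728380-34743882 and Cfb at chr17:34856374-34862518. C1ra lies at chr6:124512405-124523443, Masp1 at chr16:23449417-23520815 and Cfi at chr3:129835884-129875332. Cd55 lies at chr1:130439027-130462744, Cd46 at chr1:195036826-195092249 and Serping1 at chr2:84765387-84775444, and of the 9 members C1ra and Cfi are on the plus strand and the others on the minus strand. The promoters of 4 members (C3, C1ra, Cd55 and Cd46) were found by symbol among the RefSeq start sites of build GRCm38.p6, and C4b, Cfb, Masp1, Cfi and Serping1 were not. The 250 bases before the RefSeq start site are shown for C3, whose level was lower in the DKSFM cells, for Cd55, whose level was higher, and for Cr1l, the regulator that fell. They lie at chr17:57228137-57228386 (C3), chr1:130462745-130462994 (Cd55) and chr1:195131571-195131820 (Cr1l), all on the minus strand, and are written 5′ to 3′ along the gene. The windows of C3 and Cd55 adjoin the start of the GENCODE gene, while that of Cr1l overlaps the first bases of the GENCODE gene. Capitals mark the letters of any motif searched.
C3: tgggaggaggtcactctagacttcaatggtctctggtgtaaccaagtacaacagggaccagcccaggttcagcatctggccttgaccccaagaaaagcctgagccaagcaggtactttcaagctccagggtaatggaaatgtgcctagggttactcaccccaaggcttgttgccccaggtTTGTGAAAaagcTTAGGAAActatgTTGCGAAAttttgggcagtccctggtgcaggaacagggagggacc
Cd55: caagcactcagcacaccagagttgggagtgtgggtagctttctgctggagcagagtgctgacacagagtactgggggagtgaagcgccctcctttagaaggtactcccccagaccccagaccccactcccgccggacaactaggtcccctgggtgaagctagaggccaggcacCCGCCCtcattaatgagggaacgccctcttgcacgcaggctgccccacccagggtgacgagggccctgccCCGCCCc
Cr1l: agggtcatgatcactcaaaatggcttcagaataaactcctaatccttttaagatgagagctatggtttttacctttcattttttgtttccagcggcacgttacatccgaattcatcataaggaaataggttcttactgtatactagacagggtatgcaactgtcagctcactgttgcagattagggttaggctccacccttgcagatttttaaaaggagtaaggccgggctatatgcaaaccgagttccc

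The motifs searched on both strands were C/EBP (TTNNGNAA), AP-1 (TGANTCA), STAT (TTCNNNGAA), the TATA box (TATAAA), the GC box (GGGCGG) and kappaB, and matches could overlap. The C3 window held the C/EBP letters at 3 places, starting 70, 58 and 45 bases before the start site, the last of them on both strands. The C1ra window held them 72 and 29 bases before the start, on the minus strand, but most of that window, these matches included, lies inside the GENCODE gene, whose annotated start is further upstream. These letters occur in 36.8% of all 32851 windows of this length. The Cd55 window held the GC box 77 and 7 bases before the start, a motif found in 32.7% of all windows. The windows of Cr1l and Cd46 held none of the motifs. Of all windows, 6.75% held AP-1, 7.02% STAT, 12.4% the TATA box and 7.25% kappaB, and none of the 4 member windows did. GC content was 52% for C3, 49.6% for C1ra, 64% for Cd55, 56.8% for Cd46 and 41.6% for Cr1l, against a median of 52.4% over all windows. A match describes the letters in a window, not a bound site.

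Cytokines such as IL-1, TNF, IL-6 and interferon gamma are known to raise transcription of C3 and factor B, partly through C/EBP, NF-kappaB and STAT factors. A list of 25 such ligands, receptors and factors was therefore described beside the members. Of these, 21 were tested. The DKSFM cells were higher for 5 and lower for 5, beside 13.2% and 10.5% of all tested genes, 11 were not called, and the median of their log2 fold changes was -0.08. The 5 lower genes included the cytokines Il1a, Tnf and Lif. Il1a fell from 108.7 ± 10.5 to 0.4121 ± 0.194 (log2 fold change -7.8, SE 0.26), and Lif from 51.48 ± 1.31 to 8.215 ± 0.443 (log2 fold change -2.63, adjusted p = 4.24e-09). Tnf was listed at 15.3, 12.1 and 13 in the KSFM-Ca2+ libraries and at 0 in each DKSFM library. Tnf and Il1a passed the filter through their KSFM-Ca2+ libraries, where they were high, so their calls add nothing to these values, and a filter that asks for 0.5 in every library left both untested. Nfkbia, an inhibitor and a target of NF-kappaB, and Irf1, an interferon-responsive factor, fell by 2.32 and 1.5 on the log2 scale (adjusted p = 6.56e-10 and 2.86e-07).

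The 5 higher genes of that list were receptors and C/EBP factors. Osmr, the oncostatin M receptor, rose from 14.64 ± 0.3 to 58.47 ± 1.82 and Il6ra from 10.78 ± 0.521 to 31.16 ± 1.32 (log2 fold changes 1.99 and 1.52, adjusted p = 5.21e-09 and 8.89e-08). Tnfrsf1a rose from 86.01 ± 2.73 to 177.6 ± 5.76 (log2 fold change 1.04, adjusted p = 6.68e-08). Cebpa rose from 81.54 ± 5.29 to 509.8 ± 18.3 and Cebpd from 3.577 ± 0.646 to 9.902 ± 0.668 (log2 fold changes 2.64 and 1.46, adjusted p = 2.81e-09 and 1.7e-05). Cebpb, the most abundant gene of the list in the KSFM-Ca2+ cells, had 438.8 ± 35.8 and 419.4 ± 35.8 and overlapping lines (adjusted p = 0.439). The calls for Tnfrsf1a and Cebpd were lost in limma's test against a 2-fold change itself. Receptors that were not called went both ways. Il1r1 fell from 16.63 ± 0.66 to 9.074 ± 0.196, past the adjusted p but under 2-fold (log2 fold change -0.87, adjusted p = 2.1e-06). The log2 fold changes were 0.35 for Il6st, 0.46 for Ifngr1 and -0.08 for Ifngr2. Il1b, Il6, Osm and Ifng were too low to test, at no more than 0.3 in any library. The called genes of that list moved with C3 or against it between the same libraries. The part of any listed gene in the level of C3 was not tested.

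**Figure D5:**
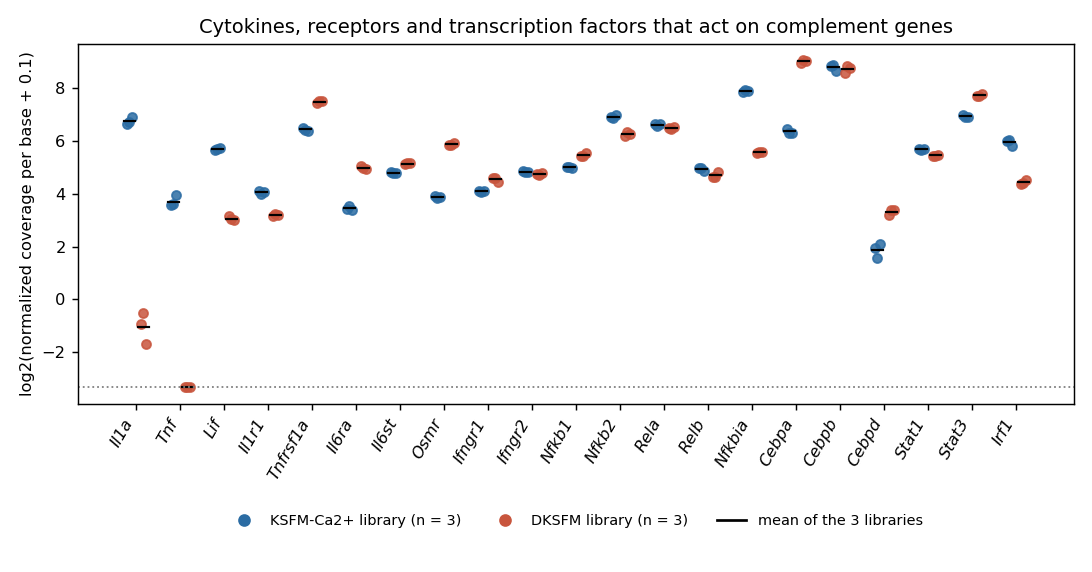
Normalized coverage per base of the 21 tested cytokines, receptors and transcription factors, with each library as a point and the mean of each line as a bar, on a log2 axis after adding 0.1; the dotted line marks genes listed at 0. Il1a, Tnf and Lif stand lower and Cebpa and Osmr higher in the DKSFM libraries.

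Markers of other cell types that make complement were counted beside these results. All 8 keratinocyte markers were tested, and their summed normalized coverage was 20700, 21000 and 20700 in the KSFM-Ca2+ libraries and 50000, 46200 and 50400 in the DKSFM libraries, with Krt14 the most abundant and 4 of the 8 called higher in the DKSFM cells, beside 13.2% of all tested genes. The label of both lines as keratinocytes thus rested on markers present in every library. Hepatocyte markers were near 0, with 5 of 10 listed at 0 in all libraries and Alb at no more than 0.1. They summed to 1.75, 3.76 and 2.48 in the KSFM-Ca2+ libraries and 1.17, 0.5 and 0.742 in the DKSFM libraries, nearly all Apoa2. Apoa2 was called lower in the DKSFM cells (2.612 ± 1.08 and 0.6637 ± 0.279, log2 fold change -1.81, adjusted p = 0.00163). It passed the filter with its KSFM-Ca2+ libraries, where it was high, and was at a normalized 0.4 in DKSFM library 2. Of 10 macrophage and leukocyte markers, 3 were at 0 in all libraries and the defining genes Ptprc and Csf1r did not exceed 0.1, while the sums of 19.7, 19.5 and 22.8 against 17.8, 22.9 and 23.9 came from Cd68 and Cd14. These differed in direction: Cd14 was called lower in the DKSFM cells (9.131 ± 0.906 and 3.739 ± 0.499, adjusted p = 1.94e-05), and Cd68 had 11.47 ± 0.908 and 17.61 ± 3.61, past the adjusted p but under 2-fold (adjusted p = 0.00515). Of 10 fibroblast markers, 7 were listed at 0 in all libraries, among them Col1a1, Col1a2, Col3a1 and Dcn.

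Some single genes of these lists moved with the DKSFM line. The fibroblast list summed to 1.22, 1.09 and 1.65 in the KSFM-Ca2+ libraries and to 45.7, 44.7 and 46.6 in the DKSFM libraries. In the KSFM-Ca2+ cells most of this sum was Pdgfra, with 1.11 ± 0.206 there and 2.22 ± 0.119 in the DKSFM cells, past the adjusted p but not called (log2 fold change 0.95, adjusted p = 0.000732). In the DKSFM cells it was mostly Fbln1, which was listed at 0.1, 0.1 and 0.2 against 40.2, 42.3 and 41.6 and passed the filter through the DKSFM libraries alone. Vim was listed at 0, 0.1 and 0.1 against 0.6, 0.3 and 0.3 and was not tested. Of 8 endothelial markers, 4 were at 0 in all libraries, Cdh5 and Vwf among them, and the sums of 2.9, 3.16 and 3.42 against 8.6, 8.49 and 7.74 came mainly from Pecam1, which was also called higher (adjusted p = 3.95e-06). Of 8 melanocyte markers, 3 were at 0 in all libraries (Dct, Tyr and Kit), and sums of 4.12, 3.96 and 4.6 against 17.3, 18.8 and 18.3 came mainly from Mitf, called higher as well (adjusted p = 1.43e-07). The part of cells expressing Fbln1, Pdgfra, Pecam1 or Mitf in the levels of Masp1 and Cd55 was not tested.

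The genes whose pattern over the 6 libraries was nearest to that of C3 were sought among all tested genes outside the lists, as the Euclidean distance between log2 values each centred on the gene's own mean. They were Dock5 (distance 0.0874), Procr (0.111), Mlkl (0.211), Bpifb4 (0.243) and Snai3 (0.254). Procr, which encodes the endothelial protein C receptor, had a mean of 74.8 in the KSFM-Ca2+ cells and 6.89 in the DKSFM cells. For Masp1 the nearest were Flnc (0.185), Klf15 (0.187), Papln (0.245), Ptn (0.267) and Sostdc1 (0.269). All 5 had a mean of 0 in the KSFM-Ca2+ cells and of 10.9 to 14.7 in the DKSFM cells, so that their distances depend on the pseudocount, as does that of Bpifb4, whose means were 1.02 and 0.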

How the data were processed

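Directional poly(A) RNA-seq libraries, 3 for each keratinocyte line by the sample labels, were aligned by the authors to mm10 with STAR and quantified with Salmon. The authors deposited a signal, the mean read coverage per base of each gene to 1 decimal, not scaled to library size. As coverage is not a count, the authors' DESeq2 model was not used. Coverage was normalized by a trimmed mean of M values (trims of 30% and 5%), transformed as log2(value + 0.1) and fitted with limma 3.58.1 (R 4.3.3) with an intensity trend, without covariate, and Benjamini-Hochberg adjusted p-values over 12409 genes. The procedure was tested on simulated data. Figures were drawn with matplotlib 3.10.9. Gene positions and transcripts came from GENCODE M21. The members and the lists of roles, inducers and markers were chosen with earlier results of these data known. Genes were named by rule: the members, complement genes above 0, called inducers, the leading or defining markers and the 5 nearest patterns. The values of 1 gene of the role lists are not reported here. Cebpb, the receptors that were not called and the untested cytokines were added after their values were seen. Alternatives were other scalings, pseudocounts, filters, no trend, a replicate block, a test against 2-fold and each library left out.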

Additional observations from a re-analysis of the deposited data

How the results depend on the processing

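The log2 fold changes of members ranged over the alternatives from -3.43 to -3.17 for C3, -1.25 to -0.58 for C1ra, 3.1 to 4.17 for Cd55 and -0.42 to 0.26 for Cd46; none is given for members listed at 0 in a line. Of all tested genes, 1636 were higher and 1307 lower in the DKSFM cells. Quantile normalization turned this balance, with 1461 higher and 1486 lower. A filter on every library gave 1032 higher genes, since it drops genes absent from 1 line, and a test against 2-fold itself gave 1062 higher and 785 lower, since it sets a higher bar. Higher complement genes outside the members numbered 4, and 2 under quantile normalization, a pseudocount of 1, the test against 2-fold, and with the libraries marked as combined only, an alternative chosen after seeing the data. That mark, whose meaning is not stated, is on KSFM-Ca2+ library 3 and all DKSFM libraries, so the lone KSFM-Ca2+ library is assumed to vary like the others. Lower ones numbered 5, and 3 at a pseudocount of 1 and with the filter on every library. Inducers numbered 5 each way, with 3 higher in the test against 2-fold and 3 lower with the filter on every library. Leaving out each library in turn gave 3 to 4 higher and 5 lower complement genes. The replicate block gave 1641 higher and 1304 lower genes and 4 and 5 complement genes; same-numbered libraries did not deviate together (correlations of -0.00508, 0.0239 and -0.0061). The rounding step of 0.1 limits what can be said of genes listed near 0. Where no reason is named, the cause was not tested.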

Other observations

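C3, C4b and Cfb lie on chromosome 17, the latter pair near each other beside C2 and C4a, and Cd46 and Cr1l are neighbours on chromosome 1. The tested genes within 1 Mb of C3, 31 in number, had a median log2 fold change of 0.32. The 11 tested genes around Masp1 had a median of -0.09, the 13 around Cd55 -0.53 and the 34 around C1ra 0.31. Cd46 had 2 tested neighbours, Cr1l among them, too few for a median.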
